A study of Homo sapiens with 9 samples.

Results

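The proteasome genes were described here in MEC1, an established cell line derived from chronic lymphocytic leukemia (CLL), a B cell malignancy. Members were the rows of the gene count table whose symbol was PSMA, PSMB, PSMC, PSMD, PSME, PSMF or PSMG followed by a number, which gave 48 of 59050 genes. RNA-seq was performed on 9 samples in 3 groups of 3 replicates. The 2D group was MEC1 in conventional two-dimensional culture, for which no time point was given, and the 3D_7d and 3D_14d groups were MEC1 embedded in a hydrogel, bioprinted as a scaffold and harvested after 7 and 14 days. No drug or genetic change separated the groups. The sample titles of all 3 groups begin with MECPGK, a label that the paper does not explain. RNA of the scaffolds was taken with TRIzol, treated with DNase and extracted again on columns. RNA of the 2D cells was taken on columns only, also with DNase in the washes. The effects of culture and of extraction therefore cannot be told apart in any comparison with 2D. Nothing in the sources used here states whether replicates were separate cultures, and p-values then measure the spread between these samples, which may be technical. As all samples come from 1 cell line, the replicates hold no variation between patients.

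The proteasome is the protease that degrades most short-lived and misfolded proteins once they carry ubiquitin. Its barrel, the 20S core, is a stack of rings of α subunits (PSMA genes), which gate the entrance, and of β subunits (PSMB genes), of which PSMB5, PSMB6 and PSMB7 carry the protease sites. In lymphoid cells and after interferon-γ these are replaced by PSMB8, PSMB9 and PSMB10, which form the immunoproteasome and favor peptides that fit MHC class I molecules. The 19S regulatory particle (PSMC and most PSMD genes) binds ubiquitin, unfolds the substrate and feeds it into the core, the PSME genes encode alternative caps, and the PSMG genes and some PSMD genes encode assembly chaperones. Inhibitors of the proteasome are used as drugs against myeloma and mantle cell lymphoma, both malignancies of the B cell lineage.

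Depth was 54662799 to 85968686 assigned reads per sample. Members took 0.842 to 0.9% of the counts in 2D, 1.16 to 1.27% in 3D_7d and 0.982 to 1.27% in 3D_14d. All 5 B cell markers examined passed the filter on low counts (MS4A1, CD79A, CD79B, PAX5 and CD22), with a summed level of 2050 to 2120 CPM (counts scaled to library size) in 2D, 2350 to 2930 in 3D_7d and 3030 to 3280 in 3D_14d. The markers did not all follow this sum. CD22 was at 527 to 561 CPM in 2D, 213 to 309 in 3D_7d and 240 to 404 in 3D_14d. None of 5 T cell or 4 monocyte markers passed, and their summed levels stayed at or below 1.56 CPM in every sample. The fibroblast markers (COL1A1 passed, of 3) reached 7.96 CPM in 2D, and the erythroid markers (HBA1 passed, of 3) summed to at most 0.0987 CPM in 2D, 1.79 to 2.39 CPM in 3D_7d and 2.92 to 5.52 CPM in 3D_14d; their part in the results was not tested. Some samples stood apart for the members. The sample 3D_14d replicate 1 had the highest level of its group in 39 of 46 members and 3D_7d replicate 1 the lowest of its group in 36, against 37.5% of all genes tested in each case. Likewise 2D replicate 1 was the highest of its group in 33 members, and 2D replicate 3 the lowest in 34, against 35.9% and 39.3% of all genes. Levels are given throughout as CPM scaled by the TMM method, and levels of different genes are compared as RPKM, which divides by exon length as well.

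Proteasome genes were higher in both 3D groups than in 2D, and no member was called lower. Of the 46 members with more than 1 CPM in at least 3 samples, 28 rose at day 7 and 24 at day 14 (edgeR quasi-likelihood test, Benjamini-Hochberg adjusted p at most 0.05 over all 13463 genes tested). Single samples moved these counts. Leaving out 2D replicate 2 or 3D_7d replicate 2 lowered the 28 to 17 and leaving out 2D replicate 3 or 3D_7d replicate 3 to 18, and without 2D replicate 3 the 24 became 12. The background at day 7 was 43.4% of all genes called, 22.2% higher and 21.2% lower. At day 14 it was 36.2%, with 19% higher and 17.2% lower. The count of 0 lower members was also 0 at an unadjusted p under 0.05 and by DESeq2, at either day. The median log2 fold change of the members was 0.56 at day 7 and 0.52 at day 14, beside -0.0039 and 0.023 over all genes tested. All 3 samples of 3D_7d lay above all 3 of 2D for 36 members and below them for 2, where 32.2% and 32.4% of all genes did so. For 3D_14d 28 members lay above 2D and 0 below, beside 24.2% and 25.5% of all genes. In bulk RNA a change in the share of cells that express a gene and a change in its RNA per cell cannot be told apart. The 2 comparisons share the 2D samples and are therefore not independent of each other. Scaling by total counts alone moved the median of all genes by -0.16 at day 7 and -0.21 at day 14, and the share of higher among all calls fell from 51.1% to 37.6% and from 52.5% to 33.1%. Removing a trend of each library with gene length on top of the TMM scaling moved these medians by 0.25 and 0.27 and the shares to 70.2% and 74.5%. The trend was fitted to CPM by total counts and also holds level shifts of whole libraries. This alternative therefore changes scaling as well as length. The members' median stayed above that of all genes by 0.563 under total counts and by 0.639 without the length trend at day 7, and by 0.511 and 0.432 at day 14.

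**Figure D1:**
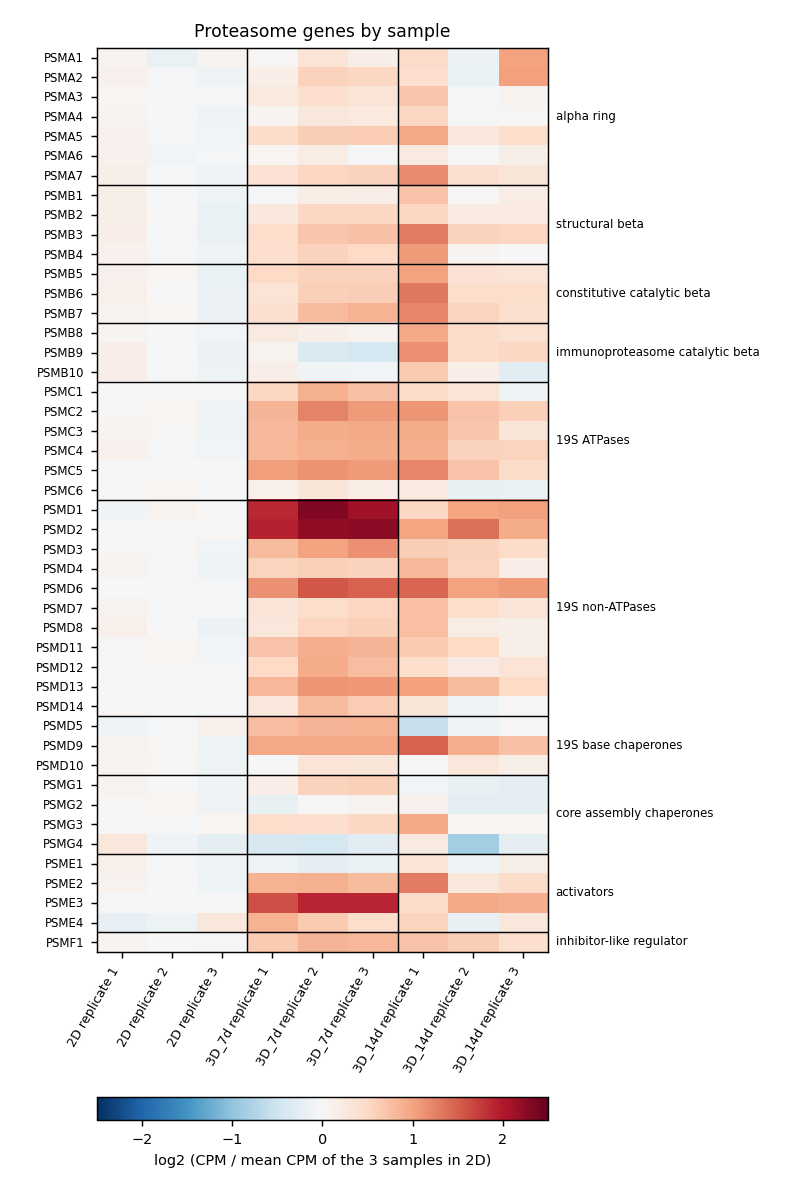
Heat map of 46 proteasome genes (rows, grouped by role) in the 9 samples (columns); color gives the log2 ratio of CPM to the mean of the 3 samples in 2D. PSMD1, PSMD2 and PSME3 are the darkest rows in the 3 samples of 3D_7d, and 3D_14d replicate 1 is the highest of its group in 39 rows.

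The remaining 2 members were PSMA8, a core subunit of the testis, and PSMB11, the catalytic subunit of the thymus. PSMA8 stayed at or below 0.2656 CPM and PSMB11 at or below 0.2465 CPM in all samples, and neither was tested. The members that passed fell into a few patterns of calls. The most common one, in 16 members, was higher at day 7 and at day 14 with no call between the days. Another 14 members had no call in any comparison. Higher at day 7 only among the 3 tests were PSMB2, PSMC1, PSMD8 and PSME4. Only PSMB8 and PSMB9 combined no call at day 7 with a call at day 14 and a call between the days.

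**Figure D2:**
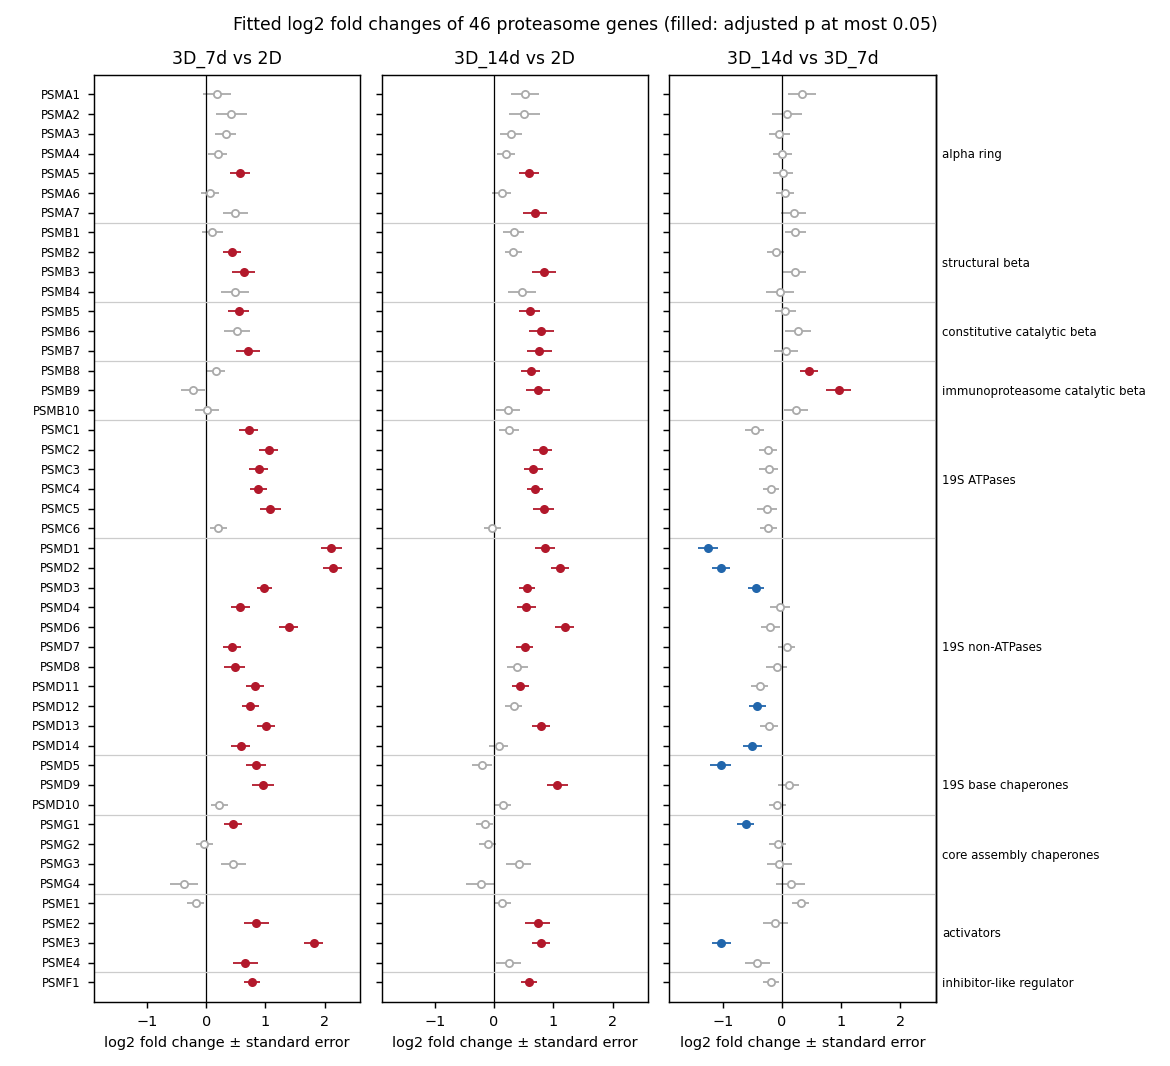
Log2 fold changes (points) with standard errors (bars) of the 46 genes in the 3 comparisons, from the edgeR fit; filled red points were called higher, filled blue points lower, and open gray points were not called. The left panel holds 28 red points, the middle panel 24, and the right panel 2 red and 8 blue.

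The 20S core lay moderately above its 2D level at both days. Of its 14 members outside the immunoproteasome, 5 rose at day 7 and 6 at day 14, where 22.2% and 19% of all genes were called higher. The medians of their log2 fold changes were 0.46 and 0.52. None was called between day 14 and day 7 (0 of 14 also at an unadjusted p under 0.05 and by DESeq2), beside 28.1% of all genes. These counts were not stable. At day 7 the 5 calls fell to 0 without 2D replicate 2, 2D replicate 3, 3D_7d replicate 2 or 3D_7d replicate 3 and to 3 without 2D replicate 1, and rose to 9 without 3D_14d replicate 1. At day 14 the 6 calls fell to 1 without 2D replicate 3, and to 3 without 2D replicate 2, under total counts or with the 6 samples of the comparison. After removal of the length trend, which also raised the median of all genes, 12 of the 14 were called at either day instead. Leaving out 3D_14d replicate 1 lowered the median at day 14 to 0.35, and between the days 1 member was then called lower. Among the 7 α subunits, PSMA5 was called at both days. Its level was 190.3, 170.0 and 167.7 CPM in 2D, 242.6, 268.0 and 274.1 CPM in 3D_7d, and 343.6, 214.2 and 238.5 CPM in 3D_14d. Both 3D groups lay above 2D without overlap, and the log2 fold changes of 0.57 ± 0.17 (SE, adjusted p = 0.0174) and 0.59 ± 0.17 (adjusted p = 0.0176) both passed the test. These calls were lost in 4 of 19 and 5 of 20 alternatives, and the value at day 14 was 0.37 without 3D_14d replicate 1. PSMA7 was called at day 14 only, with 0.69 ± 0.21 (adjusted p = 0.0201), beside 0.49 ± 0.21 at day 7 (adjusted p = 0.0696). Its call at day 14 was lost in 4 of 20 alternatives and the value was 0.36 without 3D_14d replicate 1, while a call at day 7 was gained in 5 of 19. Among the structural β subunits, PSMB3 had 325.1, 281.6 and 258.0 CPM in 2D, 393.2, 464.2 and 481.8 CPM in 3D_7d, and 708.2, 428.8 and 416.4 CPM in 3D_14d. Again no sample of a 3D group fell within the range of 2D, and 3D_14d replicate 1 was by far the highest. It rose by 0.63 ± 0.20 (adjusted p = 0.022), then stood 0.85 ± 0.20 above 2D (adjusted p = 0.00584) on the log2 scale, and the latter was 0.56 without that replicate; the call at day 7 was lost in 4 of 19 alternatives. PSMB2 rose at day 7 only (0.43 ± 0.15, adjusted p = 0.0311), a call lost in 9 of 19 alternatives.

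The α and β subunits are present in equal numbers in the assembled barrel, yet their transcript levels in 2D ranged from 8.86 RPKM for PSMA2 to 378.3 RPKM for PSMB3. The 3 core members with the lowest RPKM, PSMA2, PSMA6 and PSMA1, were those that share exonic bases with another annotated gene on the same strand. PSMA2 shared 54.0% of its exonic bases with AC010132.3, PSMA6 63.9% with AL121594.1 and PSMA1 35.7% with AC018523.2, and the other 11 shared 0%. Among the 19S members PSMC1, with the lowest level of that particle at 10.98 RPKM, shared 83.2% with NRDE2 on the opposite strand. Reads in a shared stretch may have been left uncounted or given to either gene, and the counting options were not given in the sources used here. Values of these 4 genes are therefore uncertain, the call of PSMC1 at day 7 included. The same holds for PSMB10, which shared 38.3% with AC040162.1 on the same strand. PSMD7 shared 27.6%, PSMD9 14%, PSMB9 12% and PSMB8 7.21% with their neighbors.

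**Figure D3:**
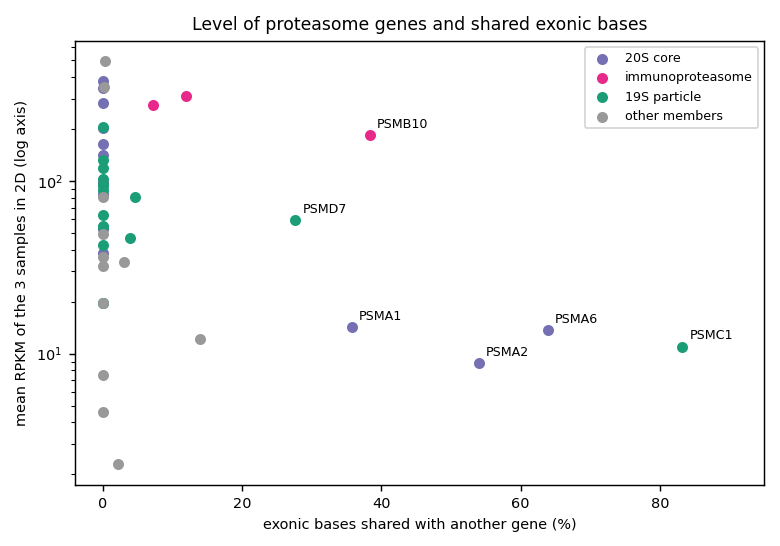
Mean RPKM of the 3 samples in 2D (log axis) against the percent of exonic bases shared with another gene, for 46 proteasome genes colored by assembly. PSMA1, PSMA2, PSMA6 and PSMC1 lie at the lower right, between 8.86 and 14.2 RPKM, and PSMB10 and PSMD7 share bases at a higher level.

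Among the protease subunits, PSMB5 and PSMB7 of the constitutive set were called higher at day 7 and no immunoproteasome subunit was. At day 14 all 3 constitutive subunits, PSMB8 and PSMB9 were called higher. All 3 samples of 3D_7d lay above 2D for each constitutive subunit and for PSMB8 as well, as they did for 32.2% of all genes. The shares of all genes called higher were 22.2% at day 7 and 19% at day 14. For the constitutive set 2 of 3 were called at day 7 and 3 of 3 at day 14, with medians of 0.55 and 0.77. Its count at day 7 was 0 without 2D replicate 2, 2D replicate 3, 3D_7d replicate 2 or 3D_7d replicate 3, and 1 without 2D replicate 1 or 3D_7d replicate 1. At day 14 it was 0 without 2D replicate 3, and the median was 0.45 without 3D_14d replicate 1. For the immunoproteasome 0 of 3 were called at day 7 (also 0 at an unadjusted p under 0.05 and by DESeq2) and 2 of 3 at day 14, with medians of 0.01 and 0.62. The count of 2 dropped to 0 when 2D replicate 3 was left out, and to 1 without 2D replicate 2 or with no filter on low counts. The difference between the 2 sets was not tested. In the fit without the length trend PSMB8 (log2 fold change 0.55, adjusted p = 0.00953) and PSMB10 (0.56, adjusted p = 0.0248) were called at day 7. The median of the constitutive set then reached 1.125. That fit also moved the median of all genes by 0.25, so these values do not separate gene length from scaling.

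PSMB5, which carries the chymotrypsin-like site, had 149.3, 142.9 and 124.3 CPM in 2D, 195.8, 205.7 and 206.8 CPM in 3D_7d, and 278.5, 178.8 and 173.7 CPM in 3D_14d. Both 3D groups were above 2D without overlap, with log2 fold changes of 0.55 ± 0.18 (adjusted p = 0.0258) and 0.60 ± 0.18 (adjusted p = 0.0199). The call at day 7 was lost in 7 of 19 alternatives, among them without any 1 of the 6 samples compared, and that at day 14 in 5 of 20, with a value of 0.35 without 3D_14d replicate 1. PSMB6, with the caspase-like site, had 134.6, 123.5 and 111.5 CPM in 2D, 157.1, 186.7 and 187.8 CPM in 3D_7d, and 307.6, 167.7 and 167.6 CPM in 3D_14d. It lay above 2D at day 7 without passing the test (0.52 ± 0.22, adjusted p = 0.0651) and rose at day 14 (0.80 ± 0.22, adjusted p = 0.0121), a value of 0.45 without 3D_14d replicate 1. A call at day 7 was gained in 5 of 19 alternatives. PSMB7, with the trypsin-like site, had 171.1, 167.5 and 146.0 CPM in 2D, 212.8, 279.1 and 296.4 CPM in 3D_7d, and 374.2, 238.2 and 212.1 CPM in 3D_14d. It rose by 0.70 ± 0.21 (adjusted p = 0.0153) and 0.77 ± 0.21 (adjusted p = 0.0119) on the log2 scale. The call at day 7 was lost in 4 of 19 alternatives, and the value at day 14 was 0.48 without 3D_14d replicate 1. Without 2D replicate 3 the calls of PSMB6 and PSMB7 at day 14 were lost.

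PSMB8 and PSMB9 are neighbors in the MHC class II region, at chr6:32840717-32844679 on the minus strand and chr6:32844136-32859851 on the plus strand (GRCh38, GENCODE 31), and PSMB10 lies at chr16:67934506-67936850. PSMB8, which takes the place of PSMB5, had 442.4, 415.7 and 401.4 CPM in 2D, 492.1, 470.0 and 448.0 CPM in 3D_7d, and 806.6, 577.7 and 547.5 CPM in 3D_14d. The 3 groups did not overlap, but the step at day 7 was 0.16 ± 0.16 (adjusted p = 0.425), and the test was passed at day 14 with 0.62 ± 0.16 (adjusted p = 0.00896), a call lost in 2 of 20 alternatives. PSMB9, which takes the place of PSMB6, had 398.6, 349.7 and 322.5 CPM in 2D, 380.4, 277.4 and 261.6 CPM in 3D_7d, and 786.1, 488.2 and 508.8 CPM in 3D_14d. The 3D_7d samples overlapped 2D (-0.22 ± 0.20, adjusted p = 0.404), and every sample of 3D_14d was above both other groups. Its log2 fold change was 0.74 ± 0.20 against 2D (adjusted p = 0.0138) and 0.96 ± 0.20 against 3D_7d (adjusted p = 0.00521). Without 3D_14d replicate 1 these were 0.49 and 0.72, and the call against 2D was lost in 2 of 20 alternatives, without 2D replicate 2 and without 2D replicate 3. PSMB10, which takes the place of PSMB7, had 201.5, 175.0 and 164.1 CPM in 2D, 202.0, 170.1 and 171.9 CPM in 3D_7d, and 285.5, 202.0 and 150.5 CPM in 3D_14d. All groups overlapped, and neither 0.01 ± 0.20 at day 7 (adjusted p = 0.975) nor 0.24 ± 0.20 at day 14 (adjusted p = 0.378) passed the test; its sign changed between alternatives.

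Per length, immunoproteasome transcripts were the majority of catalytic transcripts in all 9 samples. PSMB8, PSMB9 and PSMB10 together made up 66.2, 64.8 and 66.3% of the summed RPKM of the 6 catalytic genes in 2D, 61.8, 53.1 and 51.4% in 3D_7d, and 61.9, 64.4 and 64.4% in 3D_14d. The mean share was 65.7 ± 0.818% in 2D, 55.4 ± 5.59% in 3D_7d and 63.6 ± 1.45% in 3D_14d (SD, n = 3). The 3 samples of 3D_7d lay below all others, although the highest of them was next to the lowest of 3D_14d, and the means of 2D and 3D_14d differed by less than the SD of 3D_7d. The summed level of the constitutive genes was 400 ± 35.4 RPKM in 2D, 609 ± 68.8 in 3D_7d and 669 ± 221 in 3D_14d, and that of the immunoproteasome genes 769 ± 66.6, 759 ± 87.3 and 1150 ± 302 RPKM (SD, n = 3). By pair, PSMB8 over PSMB5 was 2.91 ± 0.165, 2.23 ± 0.169 and 2.97 ± 0.168 in 2D, 3D_7d and 3D_14d. PSMB9 over PSMB6 was 2.18 ± 0.0491, 1.33 ± 0.428 and 2.14 ± 0.188. PSMB10 over PSMB7 was 1.12 ± 0.0675, 0.718 ± 0.207 and 0.779 ± 0.0701, so that this pair alone stayed below the 2D values at day 14. These ratios are descriptions, and no test was run on them. The summed share and the ratio with PSMB10 also hold the uncertainty from the exonic bases that PSMB10 shares with another gene.

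**Figure D4:**
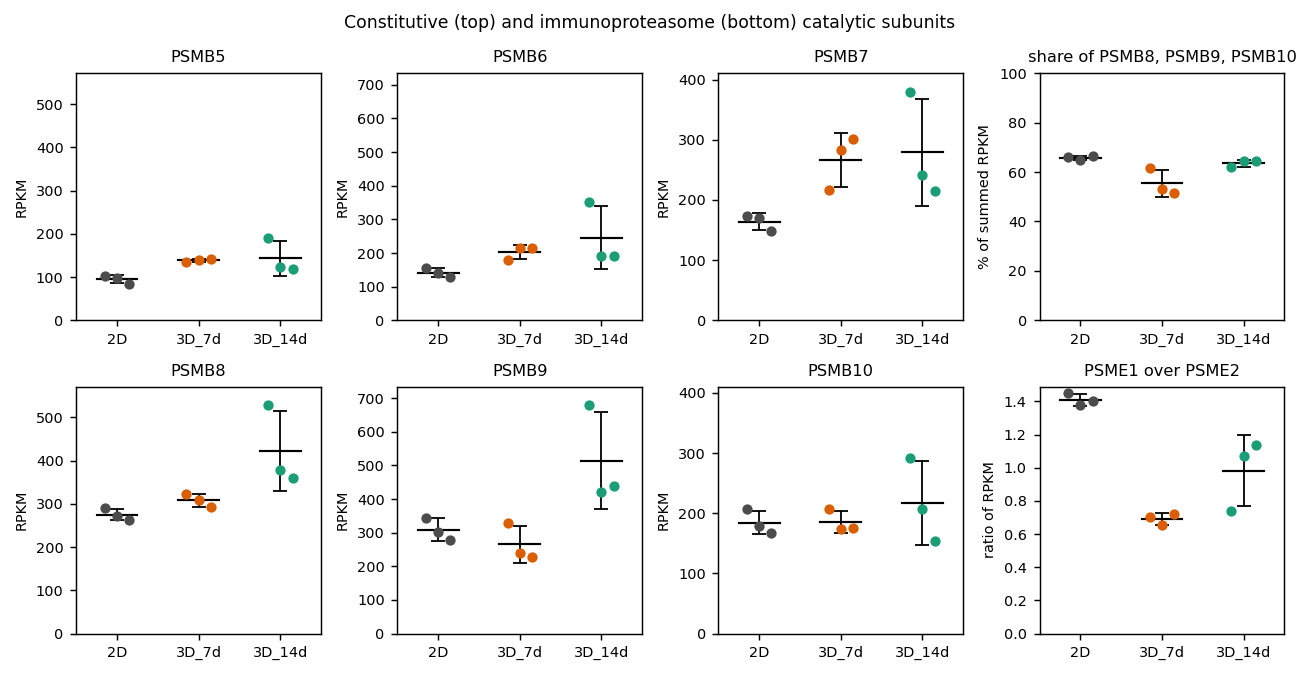
RPKM per sample (points), mean (line) and SD (bar, n = 3) of the constitutive subunits (top) above the immunoproteasome subunit that replaces each (bottom), with the share of immunoproteasome RPKM (%, top right) and the RPKM ratio PSME1 over PSME2 (bottom right). The share is 51.4 to 61.8% in 3D_7d and 61.9 to 66.3% in the other 6 samples.

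The sequence upstream of the immunoproteasome and cap genes is shown because these genes share induction by interferon yet differed in their calls here, with PSMD2, the member with the largest fold change, for contrast. Each line gives 250 bases before the RefSeq transcript start (GRCh38.p14), 5′ to 3′ on the gene's strand. Capitals mark matches on either strand to the core of the interferon-stimulated response element (GAAA, any 2 bases, GAAA), TTCNNNGAA (gamma-activated sequence), TGACNNNGC (core of the element bound by NFE2L1 and NFE2L2, which induce proteasome genes) or CCAAT. The windows are chr6:32844680-32844929 (minus strand) for PSMB8, chr6:32853942-32854191 (plus) for PSMB9, chr16:67936851-67937100 (minus) for PSMB10, chr14:24135944-24136193 (plus) for PSME1, chr14:24146611-24146860 (minus) for PSME2, and chr3:184298991-184299240 (plus) for PSMD2. The start of PSMB9 lies inside the longer gene model that was counted.
PSMB8: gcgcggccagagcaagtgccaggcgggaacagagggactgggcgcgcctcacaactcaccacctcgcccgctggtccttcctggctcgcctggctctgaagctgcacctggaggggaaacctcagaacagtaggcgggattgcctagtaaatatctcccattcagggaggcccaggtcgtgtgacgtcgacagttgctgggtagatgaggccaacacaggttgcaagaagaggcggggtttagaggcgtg
PSMB9: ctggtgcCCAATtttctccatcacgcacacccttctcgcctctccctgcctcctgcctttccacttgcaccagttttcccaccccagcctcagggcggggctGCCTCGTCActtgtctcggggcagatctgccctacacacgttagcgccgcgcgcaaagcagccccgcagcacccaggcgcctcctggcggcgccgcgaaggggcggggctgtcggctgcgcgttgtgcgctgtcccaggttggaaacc
PSMB10: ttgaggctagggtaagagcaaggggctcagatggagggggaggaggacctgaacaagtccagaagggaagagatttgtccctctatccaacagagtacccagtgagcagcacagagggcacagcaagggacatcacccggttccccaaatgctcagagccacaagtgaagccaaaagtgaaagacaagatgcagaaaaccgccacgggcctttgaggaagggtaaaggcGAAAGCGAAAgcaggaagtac
PSME1: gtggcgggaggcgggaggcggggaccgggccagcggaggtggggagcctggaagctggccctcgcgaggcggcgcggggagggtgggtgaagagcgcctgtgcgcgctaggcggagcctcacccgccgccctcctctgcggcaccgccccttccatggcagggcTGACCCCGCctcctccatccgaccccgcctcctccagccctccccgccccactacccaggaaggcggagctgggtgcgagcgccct
PSME2: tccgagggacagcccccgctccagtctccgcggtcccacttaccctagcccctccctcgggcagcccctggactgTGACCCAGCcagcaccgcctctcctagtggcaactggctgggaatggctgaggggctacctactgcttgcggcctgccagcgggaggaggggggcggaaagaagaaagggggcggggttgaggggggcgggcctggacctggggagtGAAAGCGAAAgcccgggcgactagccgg
PSMD2: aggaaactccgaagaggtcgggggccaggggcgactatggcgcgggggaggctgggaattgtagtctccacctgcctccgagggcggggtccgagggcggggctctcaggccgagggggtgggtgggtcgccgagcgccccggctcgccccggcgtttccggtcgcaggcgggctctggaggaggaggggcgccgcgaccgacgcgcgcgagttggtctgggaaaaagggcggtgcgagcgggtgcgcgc
PSMB10 and PSME2 held the same 10 bases, GAAAGCGAAA, starting 21 and 28 bases before the start, and at day 7 PSME2 was called higher and PSMB10 was not. PSME1 and PSME2 each held 1 match to TGACNNNGC, and PSMB9 held 1 on the minus strand, GCCTCGTCA, and 1 CCAAT. No match to these letters was found in the windows of PSMB8 and PSMD2. Over the 42 members with a RefSeq window, the interferon-stimulated element was found in 5 (11.9%) and in 3.07% of all 27305 windows, TTCNNNGAA in 5 (11.9%) and 6.78%, TGACNNNGC in 11 (26.2%) and 11%, and CCAAT in 18 (42.9%) and 33.0%. These matches are descriptions of letters and were not tested.

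Nearly all PSM genes of the 19S regulatory particle rose at day 7. Of these 17 members, 16 rose at day 7 and 12 at day 14, where 22.2% and 19% of all genes were called higher. Their medians were 0.88 and 0.55, and 5 fell from day 7 to day 14, beside 13.6% of all genes. ADRM1 and SEM1 belong to the particle under other names. ADRM1 was called higher at day 7 (0.46, adjusted p = 0.0349), a call lost in 10 of 19 alternatives. SEM1 was not called (-0.58, adjusted p = 0.0853), with 116.1 to 133.8 CPM in 3D_7d below 158.5 to 221.4 CPM in 2D. PSMC6 alone of the 17 members had no call at day 7, at 93.4 ± 3.02 CPM in 2D, 108 ± 6.38 CPM in 3D_7d and 91.6 ± 15.6 CPM in 3D_14d (SD, n = 3). Between day 14 and day 7 leaving out 3D_14d replicate 1 raised the count of members called lower from 5 to 10, whereas leaving out any 2D replicate, 3D_7d replicate 2 or 3D_7d replicate 3 lowered it to 2, and 3D_14d replicate 2 or 3 to 3. Among the ATPases, which form the ring that unfolds substrates, 5 of 6 rose at day 7 and 4 at day 14. PSMC2 had 169.4, 169.9 and 156.5 CPM in 2D, 298.4, 388.2 and 344.9 CPM in 3D_7d, and 353.0, 271.2 and 251.3 CPM in 3D_14d. All 6 samples in 3D exceeded those in 2D, with log2 fold changes of 1.06 ± 0.16 (adjusted p = 0.000267) and 0.82 ± 0.16 (adjusted p = 0.00185). PSMC3, PSMC4 and PSMC5 were also called at both days, with 0.89, 0.88 and 1.09 at day 7 and 0.67, 0.69 and 0.83 at day 14, and these calls held in every alternative.

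All 11 non-ATPase subunits named PSMD rose at day 7, by 0.44 to 2.14 on the log2 scale, and 8 at day 14. Without 2D replicate 2, 2D replicate 3, 3D_7d replicate 2 or 3D_7d replicate 3 the count at day 7 was 7, and at day 14 it fell to 4 when 2D replicate 3 was left out and to 5 when 2D replicate 2 was. PSMD1 and PSMD2, the large scaffold subunits of the base, stood far above the rest. PSMD2 had 259.3, 269.1 and 274.5 CPM in 2D, 1015, 1240 and 1272 CPM in 3D_7d, and 528.3, 692.2 and 511.3 CPM in 3D_14d. The 3 groups were fully separate, with a 4.39-fold rise at day 7 (log2 2.14 ± 0.16, adjusted p = 3.57e-06) and a 2.16-fold rise at day 14 (1.11 ± 0.15, adjusted p = 0.000221). PSMD1 had 61.8, 70.1 and 65.7 CPM in 2D, 244.6, 326.3 and 283.8 CPM in 3D_7d, and 94.1, 131.2 and 134.4 CPM in 3D_14d. Its rise was 4.33-fold at day 7 (log2 2.11 ± 0.17, adjusted p = 5.55e-06) and 1.82-fold at day 14 (0.86 ± 0.17, adjusted p = 0.00177). By p, PSMD2 ranked 24 and PSMD1 46 of all 13463 genes at day 7.

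PSMD6, a subunit of the lid, had 99.0, 100.7 and 97.4 CPM in 2D, 217.7, 288.7 and 273.6 CPM in 3D_7d, and 273.3, 198.5 and 207.2 CPM in 3D_14d. Unlike the scaffold subunits it stayed near its day 7 level, with log2 fold changes of 1.39 ± 0.16 (adjusted p = 4.42e-05) and 1.19 ± 0.16 (adjusted p = 0.000181) against 2D. PSMD13 rose by 1.01 and 0.79, PSMD3 by 0.98 and 0.55, and PSMD11 by 0.82 and 0.44, the latter lost in 12 of 20 alternatives. PSMD4, a ubiquitin receptor, rose by 0.58 and 0.54, and PSMD7 by 0.44 and 0.52. PSMD14, the deubiquitinase of the lid, rose at day 7 by 0.58 (adjusted p = 0.0117), and its level at day 14 was 134.6 to 183.4 CPM beside 143.8 to 151.5 CPM in 2D. PSMD12 and PSMD8 were likewise called at day 7 only, by 0.75 and 0.48. The calls at day 7 that some alternatives lost were those of PSMD8 (10 of 19), PSMD7 (7), PSMD4 (4) and PSMD14 (4). At day 14, besides PSMD11, the calls of PSMD4, PSMD7 and PSMD3 were lost in 5, 4 and 2 of 20.

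**Figure D5:**
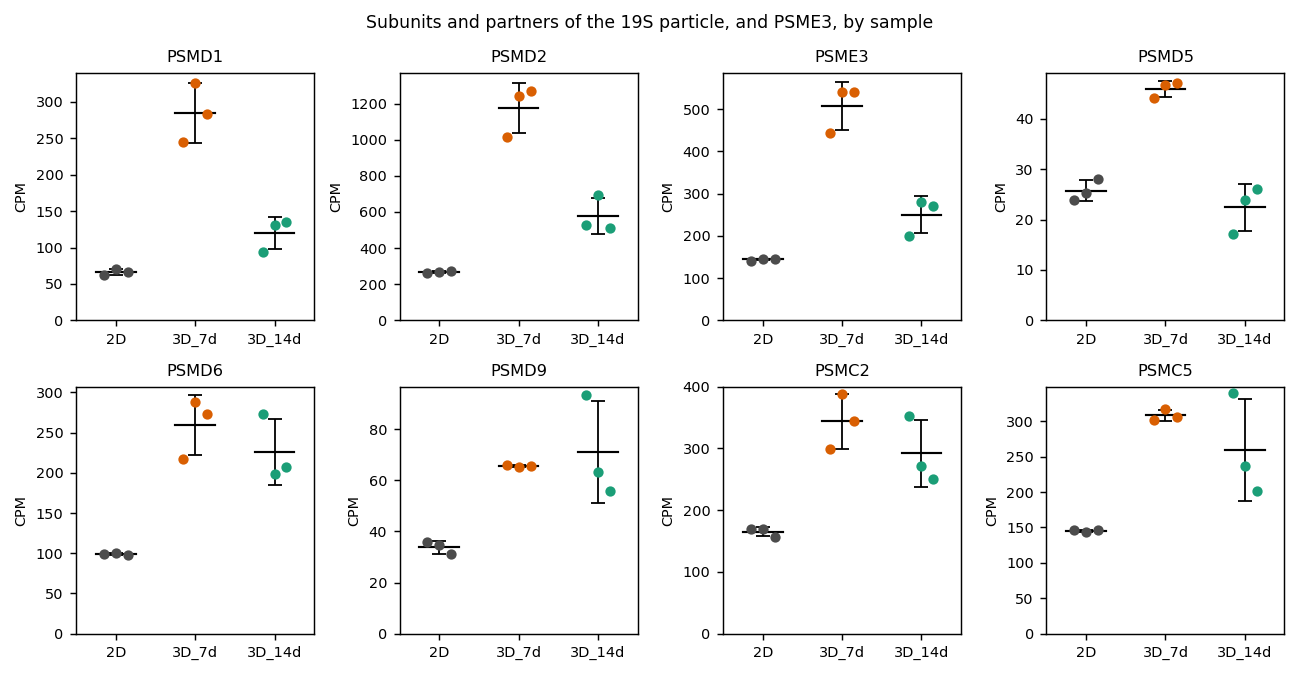
CPM per sample (points), mean (line) and SD (bar, n = 3) of 8 genes: PSMD1, PSMD2, PSMD6, PSMC2 and PSMC5 of the 19S particle, its chaperones PSMD5 and PSMD9, and the cap PSME3. In PSMD1, PSMD2, PSME3 and PSMD5 every sample of 3D_7d lies above every sample of 3D_14d, and in PSMD6, PSMD9, PSMC2 and PSMC5 the 2 groups in 3D overlap.

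The chaperones of the 19S base went separate ways. PSMD9 had 35.86, 34.53 and 31.03 CPM in 2D, 66.1, 65.1 and 65.7 CPM in 3D_7d, and 93.7, 63.3 and 56.0 CPM in 3D_14d. It was higher at both days, with 0.96 ± 0.18 (adjusted p = 0.00119) and 1.07 ± 0.18 (adjusted p = 0.000799). PSMD5 had 23.9, 25.3 and 28.0 CPM in 2D, 44.2, 46.7 and 47.1 CPM in 3D_7d, and 17.2, 24.0 and 26.1 CPM in 3D_14d. It rose at day 7 (0.84 ± 0.17, adjusted p = 0.00192) and had no call at day 14, when 2 samples lay within the range of 2D and the other below it. PSMD10 had no call, at 72.5 ± 4.83, 84.4 ± 9.9 and 80.1 ± 8.18 CPM. Among the 4 chaperones of the core, 1 rose at day 7, near the 22.2% of all genes called higher. At day 14 0 rose, beside 19% of all genes (0 of 4 in either direction at an unadjusted p under 0.05 as well, and by DESeq2). PSMG1 had 83.1, 78.2 and 73.4 CPM in 2D, 87.7, 116.0 and 117.6 CPM in 3D_7d, and 75.0, 68.5 and 66.6 CPM in 3D_14d. It lay above 2D in all 3 samples at day 7 (0.45 ± 0.15, adjusted p = 0.0245), a call lost in 7 of 19 alternatives. PSMG2, its partner, had 110.7 ± 5.22 CPM in 2D, 108 ± 10.8 CPM in 3D_7d and 103 ± 13.5 CPM in 3D_14d. PSMG4 was the member with the lowest log2 fold change at day 7, from 26.9 ± 5.21 CPM in 2D to 20.8 ± 1.22 CPM in 3D_7d, and it was called lower only in the fit of the 6 samples of that comparison.

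The caps of the core did not all move together. PSME1 and PSME2 encode the subunits of PA28αβ, the interferon-induced cap that widens the core for peptide production. PSME1 had 658.7, 592.2 and 559.5 CPM in 2D, 549.1, 516.1 and 537.6 CPM in 3D_7d, and 764.8, 559.7 and 666.3 CPM in 3D_14d. All samples of 3D_7d were below those in 2D, and neither -0.18 ± 0.14 at day 7 (adjusted p = 0.346) nor 0.14 ± 0.14 at day 14 (adjusted p = 0.485) passed the test. PSME2 had 341.9, 323.3 and 299.3 CPM in 2D, 584.9, 594.1 and 558.7 CPM in 3D_7d, and 776.6, 391.9 and 439.3 CPM in 3D_14d. It rose at both days, by 0.85 ± 0.22 (adjusted p = 0.00687) and 0.74 ± 0.21 (adjusted p = 0.0177), and the latter was 0.37 (adjusted p = 0.0213) without 3D_14d replicate 1 and lost its call in 4 of 20 alternatives. Per length, PSME1 exceeded PSME2 in 2D, with a ratio of 1.41 ± 0.0359, and lay below it in 3D_7d, with 0.693 ± 0.0365. At day 14 the ratio was 0.739, 1.07 and 1.14 in the 3 samples.

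PSME3 encodes PA28γ, the nuclear cap that acts without ubiquitin. It had 141.6, 145.0 and 145.7 CPM in 2D, 442.9, 540.0 and 540.7 CPM in 3D_7d, and 199.5, 279.3 and 270.3 CPM in 3D_14d. The 3 groups were separate, with a 3.52-fold rise at day 7 (log2 1.82 ± 0.16, adjusted p = 8.06e-06) and a 1.73-fold rise at day 14 (0.79 ± 0.16, adjusted p = 0.00194). PSME4, the PA200 cap, had the lowest level of all tested members in 2D at 2.28 RPKM. It had 14.39, 15.24 and 20.04 CPM in 2D, 30.1, 26.1 and 22.4 CPM in 3D_7d, and 24.2, 14.5 and 20.2 CPM in 3D_14d, and rose at day 7 (0.66 ± 0.22, adjusted p = 0.0251), a call lost in 5 of 19 alternatives. PSMF1, a regulator first known as an inhibitor of the core, had 171.7, 161.8 and 157.9 CPM in 2D, 256.7, 293.2 and 289.8 CPM in 3D_7d, and 268.9, 249.4 and 219.2 CPM in 3D_14d. All samples in 3D exceeded 2D, with 0.77 ± 0.13 (adjusted p = 0.000644) and 0.59 ± 0.13 (adjusted p = 0.00462).

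Between the days in 3D, 2 members rose and 8 fell, where 28.1% of all genes were called, 14.5% higher and 13.6% lower. No overlap between 3D_14d and 3D_7d was seen for 3 members that were higher and 9 that were lower, beside 18.9% and 20.5% of all genes. Both that rose, PSMB8 (0.45 ± 0.16, adjusted p = 0.0474) and PSMB9 (0.96 ± 0.20), belong to the immunoproteasome. The call of PSMB8 was lost in 12 of 19 alternatives, among them without 3D_14d replicate 1 (0.28, adjusted p = 0.0814) and without the length trend (0.23, adjusted p = 0.303), where PSMB9 kept its call with 0.61 (adjusted p = 0.0215). The 8 that fell were PSMD1, PSMD2, PSMD3, PSMD12 and PSMD14 of the 19S particle, the chaperones PSMD5 and PSMG1, and PSME3. PSMD1 fell by 1.25 ± 0.17 (adjusted p = 0.000417), PSMD5 by 1.04 ± 0.17 (adjusted p = 0.00138), PSMD2 by 1.03 ± 0.15 (adjusted p = 0.000778) and PSME3 by 1.02 ± 0.16 (adjusted p = 0.000824) on the log2 scale. These 4 calls and that of PSMB9 held in all 19 alternatives. PSMG1 fell by 0.61 ± 0.15 (adjusted p = 0.00925), and the calls of PSMD14 (-0.50), PSMD3 (-0.43) and PSMD12 (-0.42) were lost in 11, 7 and 15 of 19 alternatives. Leaving out 3D_14d replicate 1 raised the count of lower members to 16, and PSME2 was then among them with -0.46 (adjusted p = 0.0119). The count was 5 without any 1 of the 2D replicates and 4 without 3D_7d replicate 2 or 3, and that of higher members was 4 without 3D_14d replicate 2. Across the 46 members longer genes had lower log2 fold changes between the days (Spearman rho -0.518, beside 0.306 at day 7 and -0.114 at day 14 against 2D); the points share the same libraries, and the part of length in the calls was not tested beyond the alternative above.

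Other genes around the proteasome were examined as lists. Of the 39 genes tested in these lists, 15 (38.5%) were called at day 7, 13 (33.3%) at day 14 and 12 (30.8%) between the days. Of all genes 43.4%, 36.2% and 28.1% were called, with 22.2%, 19% and 14.5% higher and 21.2%, 17.2% and 13.6% lower. Of 15 subunits and partners not named PSM, 6 rose and 1 fell at day 7, and 3 rose at day 14. Between the days 1 rose and 4 fell. USP14, a deubiquitinase docked on PSMD2, rose at day 7 (0.99, adjusted p = 0.000362) and fell again (-0.74, adjusted p = 0.00482). UBE3C, a ligase that extends ubiquitin chains at the proteasome, rose at both days (1.23 and 0.74), and POMP, which helps assemble the core, was at 433 ± 46.9, 405 ± 30.6 and 594 ± 237 CPM in 2D, 3D_7d and 3D_14d. Of 10 genes of the route by which NFE2L1 induces proteasome genes, 1 rose and 3 fell at day 7, and 1 rose and 1 fell at day 14. NFE2L1 itself was not called, at 70.5 ± 2.07, 77.2 ± 2.93 and 67.7 ± 18.8 CPM. VCP, the ATPase that extracts proteins from membranes and complexes, rose by 1.52 (adjusted p = 2.72e-05) and 0.95 (adjusted p = 0.000767), and NFE2L2 fell by 0.79 and 0.70.

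Of 4 genes for ubiquitin and its activating enzymes, 1 rose and 1 fell at day 7, near the 22.2% and 21.2% of all genes called higher and lower. At day 14 2 rose, beside 19% of all genes, and between the days 1 fell, beside 13.6%. UBA1, the main activating enzyme, rose by 1.39 at day 7 and 0.90 at day 14. At day 7 RPS27A, which encodes ubiquitin fused to a ribosomal protein, fell by 0.85, a call that was lost without the length trend. Of 10 interferon-inducible genes of antigen processing, 2 rose at day 7, 6 rose at day 14, and 3 rose between the days. In these comparisons 22.2%, 19% and 14.5% of all genes were called higher, and the count at day 7 is near that share. TAPBP and TAP2 rose at both days, by 1.35 and 0.70 at day 7. B2M and HLA-B, the light chain and a heavy chain of MHC class I, were called against 2D at day 14 and not at day 7, by 0.53 and 0.69, and rose between the days by 0.73 each. TAP1, whose gene is the head-to-head neighbor of PSMB9, had no call, at 439 ± 16.9, 550.2 ± 67.0 and 564 ± 163 CPM.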

How the data were processed

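Reads (100-base single-end, SMART-Seq v4 libraries from 2 ng of RNA) were trimmed with Trimmomatic 0.39, aligned to GRCh38 with STAR 2.5.3a and assigned to genes of GENCODE release 31 with featureCounts 1.6.4. The authors deposited raw counts per gene, unnormalized, with exon length in bases; the strand setting and the treatment of multiply mapped reads were not given in the sources used here. Kits of this type do not mark strand, so a gene and its antisense partner cannot be told apart.

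Groups were taken from the sample descriptions. Genes with CPM above 1 in at least 3 samples were kept (13463 of 59050), and the counts were fitted in 1 model over all 9 samples with edgeR 4.0.16 (TMM factors 0.8837 to 1.118, quasi-likelihood test, Benjamini-Hochberg adjustment, threshold 0.05; R 4.3.3). The standard error of a log2 fold change was derived from its F statistic. The fit was tested on simulated data. Alternatives were DESeq2 1.42.0, other scalings and filters, a loess length correction (span 0.4), the replicate number as a block, and each sample left out in turn. The length correction was fitted to CPM by total counts and used together with the TMM factors, so that it also moved whole libraries. Same-numbered 2D and 3D_14d samples deviated together (r = 0.297, 0.176 and 0.112), and same-numbered 3D_7d samples did not (r at most 0.00747 with either group). The block was nevertheless fitted over all 9 samples, 3D_7d included. A further fit for day 14 against 2D alone treated its 6 samples as pairs. With 3 against 3 samples an exact permutation test cannot go below p = 0.1, so none was used. Named genes were the catalytic β subunits, the PSME genes, PSMF1 and, per class and comparison, the called member with the smallest p in each direction; other members were given by counts, ranges and log2 fold changes. PSMC3 to PSMC6, PSMA7, PSMB2 and the further members given with values were not chosen by that rule. Promoter windows came from RefSeq (GRCh38.p14). Members and gene lists were chosen with earlier results of these data known, and some genes of the lists are not reported here. Pseudogenes were 30 separate rows holding 0.116% of the members' counts.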

Additional observations from a re-analysis of the deposited data

Results flagged for a closer look

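Of the 46 members tested, 10 (21.7%) differed between day 14 and day 7, where 28.1% of all genes did (edgeR quasi-likelihood test of the contrast between the days). With shared 2D samples this contrast is the difference of the 2 effects against 2D. The log2 difference, day 14 minus day 7, was 0.45 for PSMB8 and 0.96 for PSMB9. It was -1.25 for PSMD1, -1.03 for PSMD2, -0.43 for PSMD3, -0.42 for PSMD12 and -0.50 for PSMD14 in the 19S particle, -1.04 for PSMD5 and -0.61 for PSMG1 among the chaperones, and -1.02 for PSME3.

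Outside the members the same contrast was passed by 12 of the 39 genes of the lists (30.8%), a share near the 28.1% of all genes. Among proteasome partners it was 0.86 for SEM1, -0.74 for USP14, -0.49 for ECPAS, -0.74 for UBQLN2 and -0.50 for UBQLN4. In the NFE2L1 and ubiquitin lists it was -0.57 for VCP, 2.73 for MAFF, 1.29 for MAFG and -0.49 for UBA1. In antigen processing it was 0.73 for B2M, 0.73 for HLA-B and 0.48 for HLA-C. The call was lost in 14 of 19 alternatives for UBQLN4, 13 for HLA-C, 12 for ECPAS and 6 for UBA1. It was lost in 5 each for SEM1, UBQLN2 and VCP, in 1 for B2M, and in none for USP14, MAFF, MAFG and HLA-B.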

How the results depend on the processing

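No called member changed sign in any alternative, and 17 of 28 calls at day 7, 11 of 24 at day 14 and 5 of 10 between the days held in all of them. The number of higher members at day 7 ran from 17 (without 2D replicate 2 or 3D_7d replicate 2) to 33 with 1 sample left out, at day 14 from 12 (without 2D replicate 3) to 26, and between the days from 1 to 4; the number of lower members between the days ran from 4 to 16 (16 without 3D_14d replicate 1) and that against 2D stayed at 0. Removing the length trend, which also raised the median of all genes, gave 41 higher members at day 7 and 35 at day 14. Total counts alone gave 22 and 17, no filter 24 and 16, and the 6 samples of each comparison 34 and 18. The cause was not tested. With those 6 samples 1 member, PSMG4, was lower at day 7. Between the days the count of higher members was 1 with filterByExpr, with no filter, with 6 samples, and without the length trend with or without a replicate block, and that of lower members was 5 with no filter and with 6 samples. The replicate block gave 28 and 24 higher members against 2D (23 at day 14 with the paired 6 samples only, an alternative chosen after seeing the data) and 2 higher and 6 lower between the days; the calls lost with it were PSMD11 at day 14 (those 6 samples only) and PSMD12 and PSMD14 between the days, and no other member's call changed. Without division by gene length the immunoproteasome share was 69.3% in 2D and 67.7% in 3D_14d; leaving out samples moved the share from 65.5 to 66.2% in 2D, 52.2 to 57.4% in 3D_7d and 63.2 to 64.4% in 3D_14d.

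Signs changed only where no call was made in the fit reported. At day 7 PSMB9 was 0.26 without the length trend (0.25 with the block) and PSME1 0.29 (0.29 with the block). PSMB10 at day 7 was -0.0048 under DESeq2 and under its size factors, -0.14 under total counts, -0.032 under TMM without immunoglobulin, ribosomal protein and mitochondrial genes, -0.010 with 6 samples, and from -0.099 to 0.067 with 1 sample left out. At day 14 PSMB10 ran from -0.030 (without 3D_14d replicate 1) to 0.44 (without 3D_14d replicate 3) with 1 sample left out, and PSME1 -0.067 under total counts. Replicate pairs differed by a chi-square of 22.5 to 305 per gene, averaged over the genes tested, where sampling noise alone gives about 1. The part of depth in members with few counts was not tested.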
